A study of Homo sapiens with 8 samples.

Results

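The 116 genes described here are those whose level was at least 2-fold lower in TNF-treated than in mock MH7A cells, out of 38173 gene symbols in the count table. A gene was a member if its mean level in the mock libraries was at least 3 CPM (a gene's count divided by its library's total, times 1e6), its mean in the TNF libraries was at most 0.5 of that, and both TNF libraries lay below both mock libraries. The numeric criteria held for 134 genes. Of these, 18 were left out by name, since solute carriers, ABC transporters, collagens, keratins, ADAM proteases, cadherins, integrins, WNT and Frizzled genes and hyphenated symbols were not considered. The members were thus chosen by their levels in the mock and TNF libraries, so that difference is given as a description with no test. The Tub B and TNF + Tub B libraries were not used for the choice.

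MH7A is a human line of rheumatoid arthritis synovial cells, immortalised with SV40 T antigen, that serves as a stand-in for synovial fibroblasts in culture. All 8 libraries came from this 1 line, in 4 groups of 2. Mock cells were labelled DMSO, while the design text gives them no treatment, and DMSO is named for no other group. TNF cells received tumour necrosis factor for 24 h, at 20 ng/mL in the design text and 20 ng per microlitre in the label. Tub B cells received 60 µM Tubuloside B, a phenylethanoid glycoside, for 24 h, and TNF + Tub B cells received both agents together for 24 h. Nothing in the labels states that libraries of 1 group were grown separately. The p-values therefore reflect the spread between the libraries, which may be only technical. Library totals ranged from 14073186 to 31937334 counts, so 3 counts, taken as the detection floor, correspond to 0.0939 to 0.213 CPM and cover counting error only. All 14 synovial fibroblast markers were in the table and 13 of them had a mean of at least 1 CPM, while PRG4, the gene for lubricin, did not. Of 10 leukocyte markers CD14 alone reached 1 CPM, and their summed level was 2.497 to 2.83 CPM in mock, 1.80 to 2.19 in TNF, 2.64 to 3.58 in Tub B and 2.27 to 2.49 in TNF + Tub B.

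TNF binds its receptors on fibroblasts and signals through the kinase TAK1 to NF-κB and MAP kinases. The best known outcome is the induction of cytokines, chemokines and proteases, and other transcripts decrease. A lower transcript level can come from less synthesis or faster decay, and steady-state poly(A) RNA does not separate them. In bulk RNA, fewer cells that express a gene and less RNA per cell cannot be told apart.

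The members did not belong to 1 family. RefSeq annotation matched 115 of the 116 symbols, 9 of them through older names, and classed 109 as protein coding, 5 as long noncoding RNA and 1 as a transcribed pseudogene. Sorted by known role after the members were seen, they comprised 14 transcription regulators, 14 guidance, adhesion and synapse-organising proteins, 14 enzymes and secreted proteins, 13 small GTPases, their regulators and signalling adaptors, 9 G protein-coupled receptors and their regulators, 8 other receptors and kinases, 8 vesicle and cytoskeleton genes, 7 ion channels and transporters of ions, 7 smooth muscle and actin-associated genes, 6 noncoding RNAs and 16 other genes. The thrombin receptor gene F2R and the related F2RL1 are neighbours on chromosome 5, and NOS1AP and C1orf226 on chromosome 1 share exon sequence on the same strand.

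Promoter sequence was available for 81 members in the RefSeq table (build GRCh38.p14, 250 bases before to 50 after the start). The 4 promoters below belong to genes whose values recur in the results. They are written 5′ to 3′ on the strand of the gene, and capitals mark matches, on either strand, to any of 7 motifs: NF-κB (GGGA and TTCC parted by 2 bases), ISRE (GAAA and GAAA parted by 2 bases), AP-1 (TGANTCA), TEAD (GGAATG), SP1 (GGGCGG), E-box (CACGTG) and TATA box (TATAAA). SAMD11 lies at chr1:925481-925780 on the plus strand, OXTR at chr3:8769564-8769863 on the minus strand, LMOD1 at chr1:201946499-201946798 on the minus strand and LBH at chr2:30231284-30231583 on the plus strand.
SAMD11: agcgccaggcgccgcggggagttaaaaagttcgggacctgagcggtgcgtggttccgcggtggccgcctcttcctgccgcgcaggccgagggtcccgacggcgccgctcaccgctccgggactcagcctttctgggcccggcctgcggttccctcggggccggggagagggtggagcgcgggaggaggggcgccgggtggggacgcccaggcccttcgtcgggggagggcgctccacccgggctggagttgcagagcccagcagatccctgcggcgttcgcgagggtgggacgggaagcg
OXTR: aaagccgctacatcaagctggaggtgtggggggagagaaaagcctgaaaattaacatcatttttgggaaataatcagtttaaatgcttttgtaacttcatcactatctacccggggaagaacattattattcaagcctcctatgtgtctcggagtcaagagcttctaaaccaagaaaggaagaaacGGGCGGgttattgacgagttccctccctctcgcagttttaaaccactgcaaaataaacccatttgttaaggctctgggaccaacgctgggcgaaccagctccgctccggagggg
LMOD1: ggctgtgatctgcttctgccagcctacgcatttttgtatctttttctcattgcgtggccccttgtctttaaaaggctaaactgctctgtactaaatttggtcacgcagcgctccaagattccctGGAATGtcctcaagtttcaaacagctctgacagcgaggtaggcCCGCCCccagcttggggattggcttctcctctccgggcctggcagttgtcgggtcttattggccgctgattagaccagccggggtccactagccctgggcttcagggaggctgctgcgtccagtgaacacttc
LBH: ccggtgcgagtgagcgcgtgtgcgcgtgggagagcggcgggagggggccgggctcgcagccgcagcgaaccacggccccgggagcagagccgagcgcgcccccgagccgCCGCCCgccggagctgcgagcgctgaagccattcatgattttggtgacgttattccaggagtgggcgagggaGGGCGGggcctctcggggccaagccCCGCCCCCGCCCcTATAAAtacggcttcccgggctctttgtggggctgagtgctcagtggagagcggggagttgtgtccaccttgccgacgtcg
The SAMD11 window held none of the 7 motifs, OXTR held 1 match (SP1), LMOD1 held 2 (TEAD and SP1) and LBH held 5 (4 SP1 and 1 TATA box).

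The share of the 81 promoters with each motif was set beside that of all 27305 promoters of the same length. The 2 sets differ in gene type, since 77 of the 81 and 15843 of the 27305 belong to protein-coding genes. The part of gene type in the motif shares was not tested. The NF-κB letters were found in 1 of 81 (1.23%, against 1.63% of all promoters), ISRE in 4 (4.94% against 3.65%) and AP-1 in 6 (7.41% against 7.76%). TEAD was found in 10 (12.3% against 14.0%), the TATA box in 8 (9.88% against 11.95%), the E-box in 8 (9.88% against 7.43%) and SP1 in 43 (53.1% against 44.6%). Median GC content was 62.3% for the 77 protein-coding members with a promoter and 62.7% for all 15843 protein-coding genes. These are descriptions of letters in a short window.

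Across the members, the ratio of mean TNF to mean mock CPM had a median of 0.426. Over the 114 members reported individually it ran from 0.181 in TRPC6 to 0.499 in IL6R. Over the 14045 genes with a mean of at least 1 CPM, both TNF libraries lay below both mock libraries for 44.5%, from which nothing is read here because the rule used this contrast. Just inside the limit were IL6R (0.499) and KIAA0922 (0.498). Just outside were PRSS35 (0.503), PPARG (0.503) and PRR7 (0.503). The median ratio over all 14045 genes was 0.949, and with libraries scaled by trimmed mean of M-values (TMM) 88 of the 116 genes still met the rule.

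To ask whether these genes also differ with TNF in cells that have Tub B, TNF + Tub B libraries were compared with Tub B libraries, which hold the same addition of TNF in samples the rule did not use. All 116 members passed the filter on low counts in these 4 libraries. Of them 105 were lower with TNF, none was higher and 11 were not called in edgeR's quasi-likelihood test (adjusted p below 0.05). Over all 15828 genes tested, 13.3% were called lower and 15.7% higher, against 90.5% of the members called lower. No member was higher at an unadjusted p below 0.05, and none was called higher in DESeq2 or limma-voom, which called 91 and 104 lower. The median log2 fold change of the members was −1.07, and that of all genes tested was −0.01. The count of members called lower ranged from 91 to 103 when 1 of the 4 libraries was left out.

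The calls that rested on 1 library were these. Without TNF + Tub B replicate 1, PITPNM3, NOS1AP, SERTAD4, NPR3, EFHD1, ZNF704, RGS4, PRRT1 and LINC01133 lost the call, and without TNF + Tub B replicate 2, ADRA2C, NOS1AP and PKD1L2 did while ANKRD24 gained it. Without Tub B replicate 1, ADRA2C, LDB2, WFDC1, MGARP, NOS1AP, DAB1, TOX2, SERTAD4, BCO2, NPR3, RASL10B, RGS4, PRRT1 and LINC01133 lost it. Without Tub B replicate 2, ADRA2C, NOX4, NOS1AP, CAND2, SERTAD4, PKP3, ZNF704 and PKD1L2 lost it. DESeq2 did not call ADRA2C, WFDC1, MGARP, NOS1AP, CAND2, SERTAD4, PKP3, NPR3, ZNF704, PKD1L2, RASL10B, RGS4, PRRT1 and LINC01133.

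Summed marker levels also differed between the compared groups. The 14 synovial fibroblast markers summed to 35201 to 39849 CPM in mock, 37050.4 to 37760 in TNF, 36623 to 38769 in Tub B and 30487 to 30988 in TNF + Tub B, lowest with both agents. Of the 13 tested, 6 were lower in TNF + Tub B than in Tub B, 4 higher and 3 not called. The summed level of 6 epithelial markers, of which EPCAM and CDH1 did not reach a mean of 1 CPM, was 161 to 180.0 CPM in mock, 74.3 to 76.6 in TNF, 94.2 to 117 in Tub B and 62.2 to 64.0 in TNF + Tub B. This sum is not independent of the rule, since KRT18 and KRT19, which count in it with KRT8 and CLDN4, met its numeric criteria and were left out by name. The sum of 6 mural and glial markers was 418 to 425 in mock, 518 to 542 in TNF, 308 to 335 in Tub B and 377 to 387 in TNF + Tub B. The 6 endothelial markers, with TEK alone at 1 CPM or more, summed to 5.06 to 5.15, 7.703 to 8.96, 3.84 to 4.003 and 5.93 to 6.82 CPM in the same order. Their part in the members' differences was not tested.

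**Figure D1:**
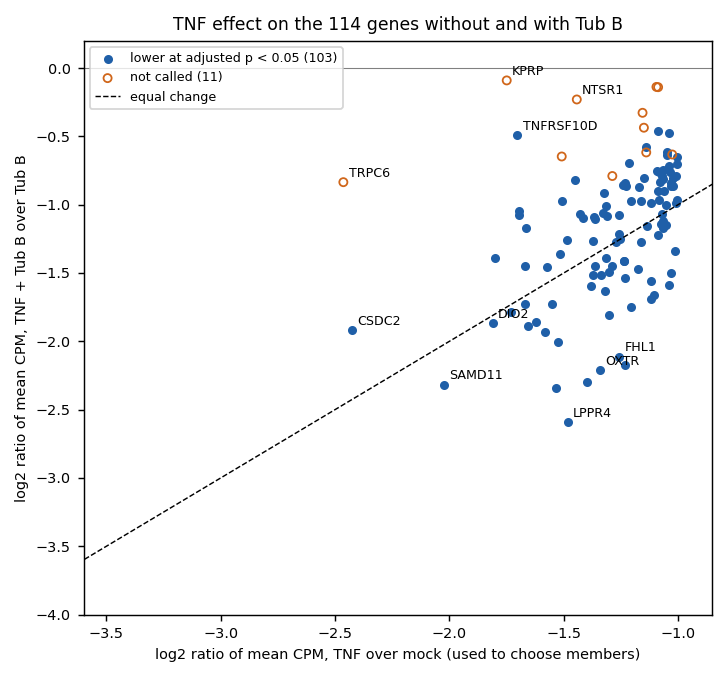
Each point is 1 of the 114 members reported individually. The x axis is the log2 ratio of mean CPM in TNF over mock, which chose the members, and the y axis is the log2 ratio in TNF + Tub B over Tub B. Filled points are the 103 members called lower in TNF + Tub B (edgeR), open points the 11 not called, and the dashed line marks equal ratios. Every point lies below 0 on the y axis.

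The ratio of mean CPM in TNF + Tub B to Tub B was below 1 for all 116 members, with a median of 0.473, and ranged from 0.166 to 0.939 over the 114 reported individually. It was at most 0.5 for 66 members, against 1.30% of the 14045 genes with a mean of at least 1 CPM. Both TNF + Tub B libraries lay below both Tub B libraries for 113 members, against 34.4% of those genes, and above them for none, against 31.0%. The 3 members whose libraries overlapped were KPRP, FAM46B and C1orf226. The ratio was smaller with Tub B than without it for 45 members and larger for 71. That difference was not tested, since the choice of members favours low TNF values in the libraries without Tub B. Across the 116 members the 2 log2 ratios, which share no library, had a Pearson r of 0.53 and a Spearman rho of 0.48.

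The 11 members not called had mock means of at most 5.27 CPM. Called members such as LDB2, VWA5A and SOX6 also had mock means below 5.27 CPM. The mock libraries were not in this comparison, and the part of level in the missing calls was not tested. The 11 were TRPC6, KPRP, RGS2, NTSR1, NXPH3, CLCN4, ANKRD24, SYNPO2L, FAM46B, C1orf226 and FANK1, with adjusted p from 0.0721 to 0.879 in edgeR. Log2 fold changes of the 103 called members reported individually ranged from −2.59 to −0.45.

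**Figure D2:**
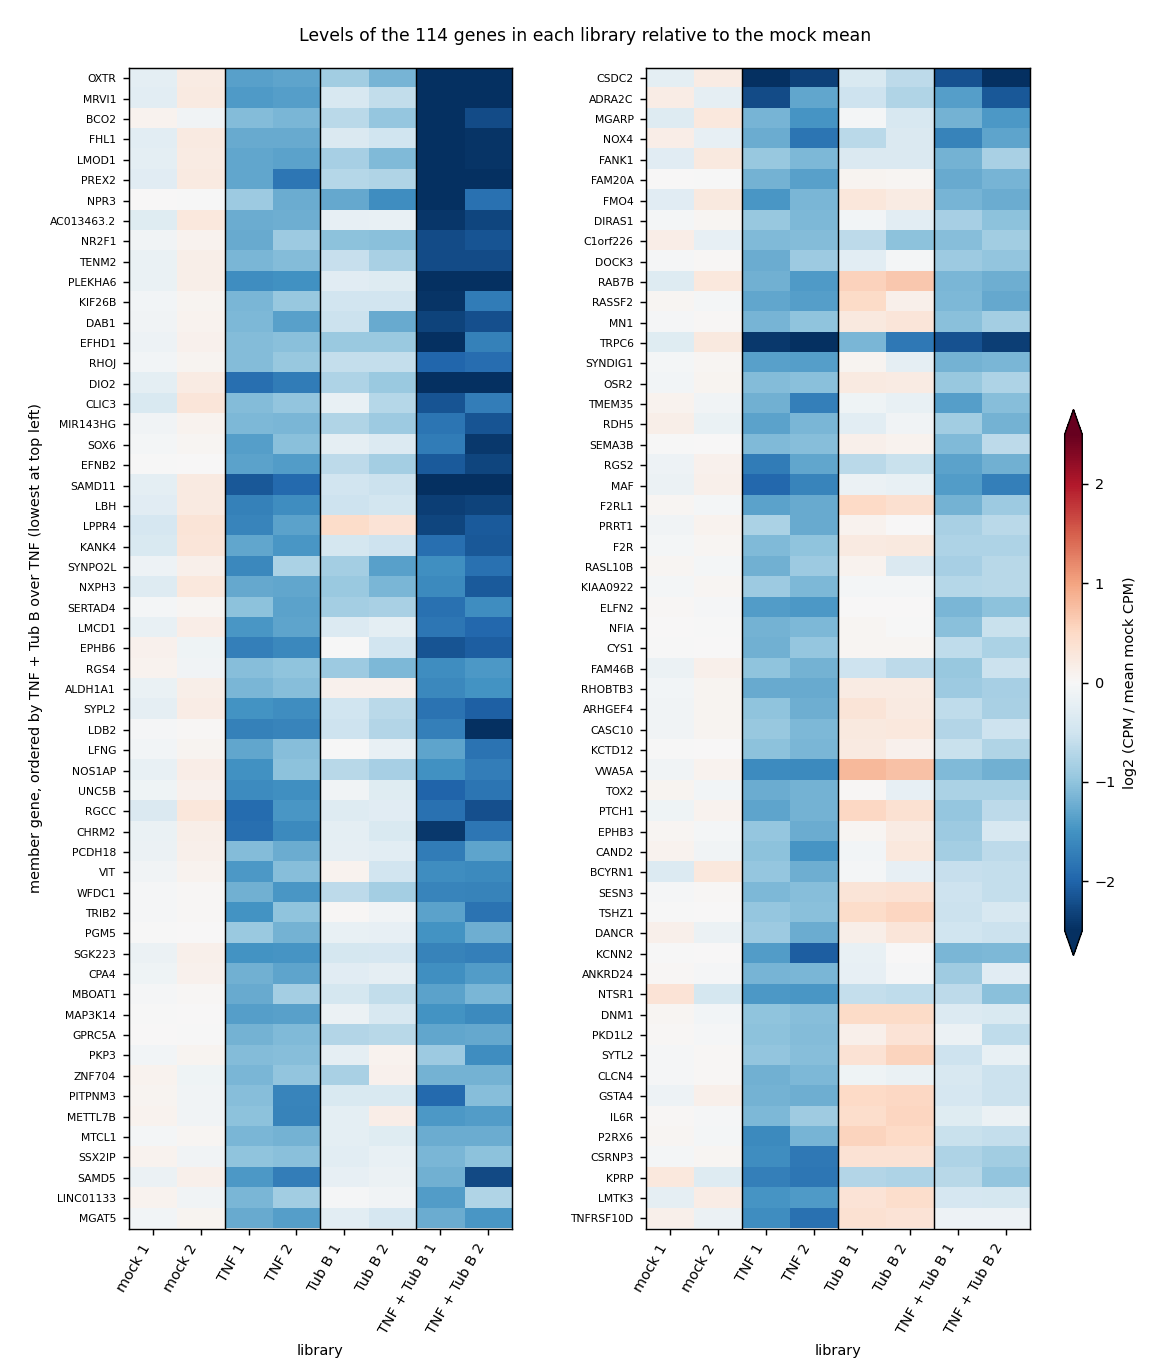
Level of each of 114 members in the 8 libraries as log2 of CPM over the gene's mean mock CPM. Rows are ordered by the ratio of TNF + Tub B to TNF, from OXTR (0.273) at the top left to TNFRSF10D (2.98) at the bottom right. Values beyond the colour bar take its end colours. The TNF columns are below mock in every row, as the rule requires, and the Tub B columns are mixed.

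The counts by role given from here on stand beside 90.5% of the 116 members and 13.3% of all 15828 genes called lower. Roles were assigned after the members were seen, and no role was tested against the rest. Among the ion channels and transporters of ions, 5 of 7 members were lower in TNF + Tub B than in Tub B and 2 were not called. TRPC6, a receptor-operated cation channel, had 3.25 and 4.77 CPM in mock, 0.751 and 0.701 in TNF, 1.82 and 1.16 in Tub B and 0.8896 and 0.782 in TNF + Tub B. Its Tub B libraries lay between mock and TNF, and its difference between TNF + Tub B and Tub B was not called (log2 fold change −0.82 ± 0.36, edgeR adjusted p = 0.0981). KCNN2, a calcium-activated potassium channel, had 7.85 and 8.04 CPM in mock, 3.01 and 1.902 in TNF, 6.96 and 8.01 in Tub B and 3.62 and 3.62 in TNF + Tub B, with both TNF groups below the other 2 groups (log2 fold change −1.03 ± 0.17, edgeR adjusted p = 6.43e-05). P2RX6, a subunit of ATP-gated channels, had 5.56 and 5.21 CPM in mock, 1.78 and 2.403 in TNF, 7.92 and 7.64 in Tub B and 3.68 and 3.55 in TNF + Tub B. Its Tub B libraries were above mock and its TNF + Tub B libraries were above TNF, while TNF + Tub B was lower than Tub B (log2 fold change −1.09 ± 0.16, edgeR adjusted p = 2.30e-05). CLCN4, an endosomal chloride-proton exchanger, was not called (log2 fold change −0.31 ± 0.19, edgeR adjusted p = 0.2598). The remaining PKD1L2, a polycystin-like pseudogene by RefSeq, and CLIC3, an intracellular chloride channel protein, had log2 fold changes of −0.58 ± 0.16 and −1.51 ± 0.29.

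Of the 9 G protein-coupled receptors and regulators, 7 were lower in TNF + Tub B than in Tub B and 2 were not called. OXTR, the oxytocin receptor, had 369.6 and 501 CPM in mock, 169 and 174 in TNF, 239 and 195 in Tub B and 43.9 and 49.9 in TNF + Tub B. The 4 groups did not overlap and stood in the order mock, Tub B, TNF, TNF + Tub B. Its level with both agents was 0.273 of that with TNF, the lowest such ratio of any member, and 0.216 of that with Tub B (log2 fold change −2.205 ± 0.08, edgeR adjusted p = 2.99e-14). CHRM2, a muscarinic acetylcholine receptor, had 7.35 and 9.15 CPM in mock, 2.22 and 2.75 in TNF, 7.005 and 6.37 in Tub B and 1.54 and 2.34 in TNF + Tub B, with no overlap between the libraries with and without TNF (log2 fold change −1.79 ± 0.21, edgeR adjusted p = 1.25e-06). F2R had 81.7 and 86.4 CPM in mock, 39.1 and 41.9 in TNF, 98.1 and 99.4 in Tub B and 49.1 and 49.4 in TNF + Tub B. F2RL1, a protease-activated receptor, had 8.13 and 7.54 CPM in mock, 3.0998 and 3.25 in TNF, 11.1 and 10.4 in Tub B and 3.44 and 4.19 in TNF + Tub B. For both, Tub B libraries were above mock and both TNF groups were below mock (F2R log2 fold change −0.99 ± 0.06, edgeR adjusted p = 2.02e-11 and F2RL1 log2 fold change −1.49 ± 0.15, edgeR adjusted p = 1.91e-07). GPRC5A, an orphan receptor induced by retinoic acid, had 193 and 192 CPM in mock, 85.3 and 89.3 in TNF, 117 and 118 in Tub B and 78.5 and 79.02 in TNF + Tub B (log2 fold change −0.56 ± 0.05, edgeR adjusted p = 2.23e-08). RGS4, which shortens G protein signals, stood lower with Tub B alone (9.12 and 7.79 CPM) than in mock (18.2 and 15.96 CPM). Its fall with TNF in Tub B cells (log2 fold change −0.47 ± 0.15, edgeR adjusted p = 0.0191) was not called without TNF + Tub B replicate 1 (0.102), without Tub B replicate 1 (0.189) or in DESeq2 (0.172). The call for ADRA2C, an adrenergic receptor (log2 fold change −1.03 ± 0.32, edgeR adjusted p = 0.0199), was also lost in DESeq2 (0.173) and without TNF + Tub B replicate 2 (0.160), Tub B replicate 1 (0.169) or Tub B replicate 2 (0.0641). RGS2 and NTSR1, the neurotensin receptor, were not called (adjusted p = 0.0847 and 0.598 in edgeR).

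**Figure D3:**
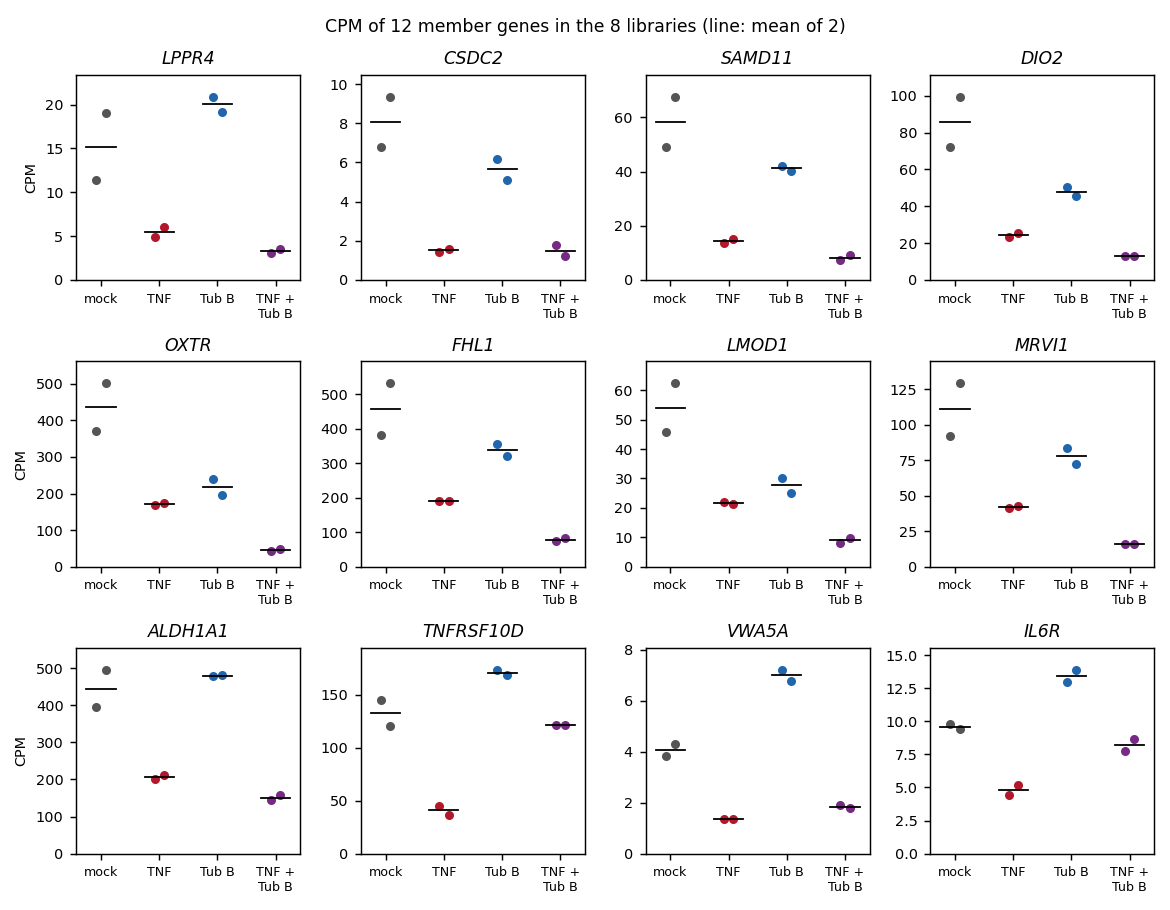
CPM of 12 members in each library, with the group mean as a line and every axis from 0. CSDC2 is low in both TNF groups. LPPR4, SAMD11, DIO2, OXTR, FHL1, LMOD1, MRVI1 and ALDH1A1 are lowest with both agents. TNFRSF10D with both agents (122 and 121 CPM) is close to mock (145 and 120.1 CPM).

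Smooth muscle and actin-associated genes had 6 of 7 members lower in TNF + Tub B than in Tub B and 1, SYNPO2L, not called. FHL1, a LIM-domain protein of muscle, had 382 and 531 CPM in mock, 191 and 191 in TNF, 357 and 322 in Tub B and 73.7 and 83.1 in TNF + Tub B. MRVI1, a substrate of cGMP-dependent kinase that limits calcium release in smooth muscle, had 92.5 and 129 CPM in mock, 41.5 and 42.6 in TNF, 83.7 and 72.6 in Tub B and 15.7 and 16.1 in TNF + Tub B. In both genes the TNF + Tub B libraries lay below all other libraries (FHL1 log2 fold change −2.105 ± 0.06, edgeR adjusted p = 7.03e-16 and MRVI1 log2 fold change −2.28 ± 0.08, edgeR adjusted p = 2.87e-14). LMOD1, a leiomodin that nucleates actin in smooth muscle, had 45.8 and 62.3 CPM in mock, 22.04 and 21.3 in TNF, 30.3 and 25.02 in Tub B and 7.95 and 9.95 in TNF + Tub B (log2 fold change −1.63 ± 0.12, edgeR adjusted p = 1.91e-09). LMCD1, a LIM protein and transcriptional cofactor, had 30.5 and 39.2 CPM in mock, 12.7 and 14.1 in TNF, 27.6 and 29.5 in Tub B and 9.96 and 8.88 in TNF + Tub B (log2 fold change −1.58 ± 0.10, edgeR adjusted p = 1.23e-10). In both, the level was lowest with both agents. PGM5, a protein of adherens junctions with muscle actin, had 9.84 and 9.92 CPM in mock, 5.17 and 4.36 in TNF, 8.68 and 8.53 in Tub B and 3.499 and 4.26 in TNF + Tub B (log2 fold change −1.15 ± 0.16, edgeR adjusted p = 1.06e-05). Both Tub B libraries lay below both mock libraries for all 7 members, against 56 of the 116 and 18.2% of the 14045 genes. Both TNF + Tub B libraries lay below both TNF libraries for 6, against 46 of the 116 and 18.1%. The members were chosen for high mock and low TNF levels, so these counts are descriptions with no test. KANK4, a regulator of actin assembly, had a log2 fold change of −1.49 ± 0.29 between TNF + Tub B and Tub B, and SYNPO2L, a Z-disc protein, −0.599 ± 0.32. These genes were grouped after their values had been seen. On the list of muscle contractile and sarcomere genes, which holds FHL1 and LMOD1, 10 of 18 tested genes were lower in TNF + Tub B than in Tub B, 2 higher and 6 not called, with a median log2 fold change of −0.29.

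Mock replicate 2 was higher than mock replicate 1 for many of the genes just named. Replicate 1 was at most 0.8 of replicate 2 in 27 members (23.3%), against 5.04% of the 14045 genes, and the reverse held for 5 members. OXTR, FHL1, MRVI1, LMOD1, SAMD11 and DIO2 were among the 27. Its part in the choice of members was not tested. With mock replicate 1 alone in the rule 111 genes met it, 94 of them among the 116, and with mock replicate 2 alone 136 genes met it, 101 of them among the 116.

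All 14 transcription regulators were lower in TNF + Tub B than in Tub B, against 90.5% of the 116 members and 13.3% of all 15828 genes. SAMD11, a nuclear SAM-domain protein, had 48.9 and 67.7 CPM in mock, 13.5 and 15.2 in TNF, 41.98 and 40.3 in Tub B and 7.47 and 9.02 in TNF + Tub B. The 4 groups did not overlap, and the level with both agents was below that with either (log2 fold change −2.32 ± 0.10, edgeR adjusted p = 2.53e-13). MAF, a leucine-zipper factor, had 6.53 and 7.93 CPM in mock, 1.85 and 2.303 in TNF, 6.57 and 6.32 in Tub B and 2.73 and 2.203 in TNF + Tub B, with Tub B libraries overlapping mock and TNF + Tub B libraries overlapping TNF (log2 fold change −1.36 ± 0.19, edgeR adjusted p = 1.09e-05). LBH, a cofactor known in limb and heart development, had 12.3 and 17.5 CPM in mock, 4.63 and 5.06 in TNF, 10.4 and 10.9 in Tub B and 2.91 and 2.98 in TNF + Tub B (log2 fold change −1.84 ± 0.16, edgeR adjusted p = 1.30e-08). NR2F1, an orphan nuclear receptor, had 37.3 and 41.7 CPM in mock, 16.6 and 21.2 in TNF, 19.5 and 19.2 in Tub B and 8.42 and 8.81 in TNF + Tub B, so that Tub B alone stood at 0.4896 of mock and overlapped TNF (log2 fold change −1.16 ± 0.11, edgeR adjusted p = 4.43e-08). CSRNP3, a nuclear protein of the cysteine-serine-rich family, had 5.99 and 6.48 CPM in mock, 2.13 and 1.802 in TNF, 7.96 and 8.01 in Tub B and 3.68 and 3.41 in TNF + Tub B (log2 fold change −1.15 ± 0.16, edgeR adjusted p = 1.13e-05), above mock with Tub B and above TNF with both agents. TSHZ1, a zinc finger homeobox factor, had 116 and 116 CPM in mock, 59.3 and 56.4 in TNF, 160.4 and 168 in Tub B and 80.4 and 88.2 in TNF + Tub B, above mock with Tub B alone and between mock and TNF with both agents (log2 fold change −0.95 ± 0.05, edgeR adjusted p = 1.71e-11). OSR2, a developmental zinc finger factor, had 42.3 and 46.1 CPM in mock, 20.7 and 21.4 in TNF, 51.4 and 50.6 in Tub B and 22.8 and 25.8 in TNF + Tub B (log2 fold change −1.06 ± 0.07, edgeR adjusted p = 7.36e-10). SOX6, a factor of cartilage formation, had 4.42 and 4.71 CPM in mock, 1.75 and 2.203 in TNF, 3.89 and 3.58 in Tub B and 1.36 and 0.853 in TNF + Tub B (log2 fold change −1.71 ± 0.27, edgeR adjusted p = 5.26e-05). By CPM, OSR2 was above mock with Tub B and above TNF with both agents, and SOX6 was below in each case. In a TMM-scaled edgeR fit of all 8 libraries, the log2 fold change of OSR2 between TNF + Tub B and TNF was only 0.08 ± 0.08. Between TNF + Tub B and Tub B, NFIA, MN1, TOX2, LDB2, SERTAD4 and ZNF704 had log2 fold changes from −1.400 ± 0.33 to −0.68 ± 0.16. The ZNF704 call (log2 fold change −0.87 ± 0.31, edgeR adjusted p = 0.0401) was lost in DESeq2 (0.195), in limma-voom (0.0817), without TNF + Tub B replicate 1 (0.0704) and without Tub B replicate 2 (0.512), where the log2 fold change was −0.36.

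Guidance, adhesion and synapse-organising genes had 13 of 14 members lower in TNF + Tub B than in Tub B, with NXPH3 not called. LPPR4, a neuronal lipid phosphatase-related protein, had 11.3 and 19.01 CPM in mock, 4.85 and 6.01 in TNF, 20.9 and 19.1 in Tub B and 3.08 and 3.55 in TNF + Tub B. Tub B alone was just above mock and TNF + Tub B below TNF, so the ratio between the 2 groups with Tub B was 0.166 (log2 fold change −2.59 ± 0.14, edgeR adjusted p = 1.03e-11). UNC5B, a netrin receptor, had 43.4 and 50.2 CPM in mock, 15.7 and 16.2 in TNF, 44.1 and 38.2 in Tub B and 11.7 and 13.1 in TNF + Tub B (log2 fold change −1.72 ± 0.10, edgeR adjusted p = 2.41e-11). EFNB2, an ephrin ligand, had 15.3 and 15.5 CPM in mock, 6.11 and 5.86 in TNF, 9.84 and 8.58 in Tub B and 3.62 and 3.13 in TNF + Tub B (log2 fold change −1.43 ± 0.16, edgeR adjusted p = 9.44e-07). In both, TNF + Tub B libraries lay below TNF libraries, and for EFNB2 Tub B also lay below mock. The ephrin receptor EPHB6 had 7.67 and 6.65 CPM in mock, 2.19 and 2.35 in TNF, 7.101 and 5.11 in Tub B and 1.601 and 1.71 in TNF + Tub B (log2 fold change −1.88 ± 0.23, edgeR adjusted p = 2.44e-06), with both agents below TNF. EPHB3 had 9.74 and 9.09 CPM in mock, 4.82 and 4.005 in TNF, 9.69 and 10.9 in Tub B and 5.04 and 7.18 in TNF + Tub B (log2 fold change −0.76 ± 0.15, edgeR adjusted p = 0.000744), with both agents above TNF. Without TNF + Tub B replicate 1 this log2 fold change of EPHB3 was −0.501. The order of EPHB3 with both agents above TNF is by CPM. In a TMM-scaled edgeR fit of all 8 libraries, its log2 fold change between TNF + Tub B and TNF was 0.31 ± 0.17. TENM2, a teneurin adhesion protein, had 51.8 and 64.02 CPM in mock, 26.1 and 27.1 in TNF, 38.96 and 33.1 in Tub B and 12.2 and 12.3 in TNF + Tub B, with 4 groups that did not overlap (log2 fold change −1.55 ± 0.10, edgeR adjusted p = 1.75e-10). PCDH18, a protocadherin, had 92.5 and 111 CPM in mock, 47.8 and 43.4 in TNF, 87.1 and 85.4 in Tub B and 30.5 and 40.9 in TNF + Tub B (log2 fold change −1.27 ± 0.09, edgeR adjusted p = 3.83e-10). ELFN2, a synaptic leucine-rich repeat protein, had 75.5 and 72.7 CPM in mock, 28.2 and 27.3 in TNF, 74.3 and 75.1 in Tub B and 33.4 and 36.5 in TNF + Tub B (log2 fold change −1.09 ± 0.06, edgeR adjusted p = 5.11e-11). PCDH18 was below TNF with both agents and ELFN2 above it. SEMA3B, a secreted semaphorin, had 43.4 and 44.2 CPM in mock, 20.5 and 20.9 in TNF, 47.8 and 46.7 in Tub B and 20.4 and 27.9 in TNF + Tub B (log2 fold change −0.97 ± 0.10, edgeR adjusted p = 1.19e-07). SYNDIG1, VIT, PKP3 and PRRT1 had log2 fold changes from −1.400 ± 0.29 to −0.78 ± 0.21. Of 55 tested genes on the list of axon guidance ligands and receptors, which holds 5 members, 18 were lower, 12 higher and 25 not called, with a median of −0.12.

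All 8 of the other receptors and kinases were lower in TNF + Tub B than in Tub B. TNFRSF10D, a decoy receptor for the death ligand TRAIL, had 145 and 120.1 CPM in mock, 45.1 and 36.4 in TNF, 173 and 169 in Tub B and 122 and 121 in TNF + Tub B. The TNF libraries stood apart from the other 6, and the level with both agents was 2.98 times that with TNF, the highest such ratio of any member. It was the 1 member whose TNF + Tub B libraries did not both lie below both mock libraries. With TNF in Tub B cells it fell to 0.711 of the Tub B level (log2 fold change −0.48 ± 0.05, edgeR adjusted p = 7.96e-08), and the ratio of TNF to mock was 0.307. The difference between these ratios was not tested. LMTK3, a transmembrane kinase, had 4.03 and 5.38 CPM in mock, 1.69 and 1.75 in TNF, 5.95 and 6.37 in Tub B and 3.499 and 3.48 in TNF + Tub B (log2 fold change −0.804 ± 0.17, edgeR adjusted p = 0.00124). IL6R, the receptor for interleukin 6, had 9.77 and 9.42 CPM in mock, 4.41 and 5.16 in TNF, 12.95 and 13.9 in Tub B and 7.77 and 8.67 in TNF + Tub B (log2 fold change −0.696 ± 0.12, edgeR adjusted p = 0.000133). In LMTK3 and IL6R, Tub B libraries lay above mock and TNF + Tub B libraries above TNF.

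MAP3K14, the NF-κB-inducing kinase of the non-canonical pathway, had 15.8 and 16.2 CPM in mock, 6.14 and 6.21 in TNF, 14.3 and 12.2 in Tub B and 5.69 and 5.33 in TNF + Tub B, with the libraries with TNF well below those without (log2 fold change −1.25 ± 0.14, edgeR adjusted p = 5.53e-07). PTCH1, the Hedgehog receptor, had 8.52 and 9.76 CPM in mock, 3.66 and 4.005 in TNF, 13.1 and 11.9 in Tub B and 4.69 and 5.83 in TNF + Tub B (log2 fold change −1.25 ± 0.14, edgeR adjusted p = 7.83e-07). On the Hedgehog list, 4 of 10 tested genes were lower, 1 higher and 5 not called, with a median of −0.12. SGK223, a pseudokinase, had 69.8 and 83.97 CPM in mock, 27.1 and 27.8 in TNF, 56.4 and 57.7 in Tub B and 24.3 and 23.4 in TNF + Tub B (log2 fold change −1.24 ± 0.07, edgeR adjusted p = 1.91e-11). TRIB2, another pseudokinase, had 14.9 and 15.7 CPM in mock, 5.45 and 7.56 in TNF, 15.6 and 14.3 in Tub B and 6.05 and 4.26 in TNF + Tub B (log2 fold change −1.51 ± 0.14, edgeR adjusted p = 7.04e-08). NPR3, the clearance receptor for natriuretic peptides, had 12.98 and 12.7 CPM in mock, 6.83 and 5.46 in TNF, 5.33 and 4.37 in Tub B and 1.96 and 3.55 in TNF + Tub B, with Tub B alone at 0.377 of mock. Its call (log2 fold change −0.84 ± 0.23, edgeR adjusted p = 0.00958) was lost in DESeq2 (0.0859), without TNF + Tub B replicate 1 (0.215) and without Tub B replicate 1 (0.153). Its log2 fold change was −0.44 without TNF + Tub B replicate 1 and −1.299 without TNF + Tub B replicate 2.

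Small GTPases, their regulators and signalling adaptors were lower in TNF + Tub B than in Tub B in all 13 members. PLEKHA6, a pleckstrin-homology domain protein, had 36.03 and 45.2 CPM in mock, 13.8 and 14.3 in TNF, 33.2 and 32.4 in Tub B and 6.29 and 6.68 in TNF + Tub B (log2 fold change −2.33 ± 0.10, edgeR adjusted p = 4.35e-13). PREX2, an exchange factor for RAC, had 4.49 and 6.37 CPM in mock, 2.22 and 1.55 in TNF, 3.31 and 3.21 in Tub B and 0.771 and 0.853 in TNF + Tub B (log2 fold change −1.99 ± 0.29, edgeR adjusted p = 1.70e-05). In both, the level with both agents was below that with TNF. RHOBTB3, an atypical ATPase of the Golgi, had 172 and 188 CPM in mock, 74.9 and 75.3 in TNF, 209 and 208 in Tub B and 96.4 and 102 in TNF + Tub B (log2 fold change −1.06 ± 0.05, edgeR adjusted p = 6.98e-13). SESN3, a sestrin that restrains mTORC1, had 24.9 and 25.9 CPM in mock, 11.7 and 12.2 in TNF, 31.95 and 32.6 in Tub B and 17.7 and 16.8 in TNF + Tub B (log2 fold change −0.89 ± 0.08, edgeR adjusted p = 3.97e-08). For RHOBTB3 and SESN3, Tub B alone was above mock and both agents above TNF. RHOJ, a small GTPase, had 14.1 and 15.6 CPM in mock, 7.01 and 7.66 in TNF, 9.74 and 9.796 in Tub B and 3.74 and 3.98 in TNF + Tub B (log2 fold change −1.33 ± 0.15, edgeR adjusted p = 7.37e-07), lowest with both agents. RGCC, a cell cycle regulator induced by complement, had 4.07 and 6.37 CPM in mock, 1.38 and 1.902 in TNF, 4.17 and 4.32 in Tub B and 1.42 and 1.14 in TNF + Tub B (log2 fold change −1.698 ± 0.24, edgeR adjusted p = 1.51e-05). RASSF2, NOS1AP, DAB1, ARHGEF4, DOCK3, RASL10B and DIRAS1 had log2 fold changes from −1.497 ± 0.16 to −0.64 ± 0.18.

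All 14 enzymes and secreted proteins were lower in TNF + Tub B than in Tub B. DIO2, the deiodinase that activates thyroid hormone, had 72.2 and 99.5 CPM in mock, 23.3 and 25.6 in TNF, 50.6 and 45.3 in Tub B and 13.05 and 13.2 in TNF + Tub B, in the order mock, Tub B, TNF, TNF + Tub B with no overlap (log2 fold change −1.86 ± 0.09, edgeR adjusted p = 1.47e-12). ALDH1A1, a retinaldehyde dehydrogenase, had 395 and 494 CPM in mock, 201 and 213 in TNF, 478 and 482 in Tub B and 145 and 158 in TNF + Tub B, with Tub B alone inside the range of mock and both agents below TNF (log2 fold change −1.65 ± 0.05, edgeR adjusted p = 5.77e-16). MGAT5, which branches N-glycans, had 201 and 222 CPM in mock, 88.9 and 80.999 in TNF, 176 and 159 in Tub B and 89.9 and 76.6 in TNF + Tub B, with TNF and TNF + Tub B overlapping (log2 fold change −0.99 ± 0.07, edgeR adjusted p = 2.78e-10). GSTA4, a glutathione transferase for lipid peroxidation products, had 13.2 and 15.7 CPM in mock, 6.36 and 6.16 in TNF, 20.3 and 20.6 in Tub B and 10.9 and 10.02 in TNF + Tub B, above mock with Tub B and above TNF with both (log2 fold change −0.95 ± 0.10, edgeR adjusted p = 3.28e-07). NOX4, a constitutively active NADPH oxidase, had 6.38 and 4.93 CPM in mock, 2.38 and 1.602 in TNF, 3.55 and 4.42 in Tub B and 1.78 and 2.27 in TNF + Tub B (log2 fold change −0.97 ± 0.23, edgeR adjusted p = 0.002997), with both agents overlapping TNF. LFNG, a glycosyltransferase that modifies Notch, had 12.9 and 14.2 CPM in mock, 5.48 and 6.51 in TNF, 13.4 and 11.96 in Tub B and 5.397 and 3.77 in TNF + Tub B (log2 fold change −1.44 ± 0.15, edgeR adjusted p = 3.55e-07). FAM20A, a secretory-pathway pseudokinase, had 8.13 and 8.09 CPM in mock, 3.57 and 3.15 in TNF, 8.54 and 8.43 in Tub B and 3.38 and 3.62 in TNF + Tub B (log2 fold change −1.27 ± 0.16, edgeR adjusted p = 3.05e-06). BCO2, a carotene-cleaving oxygenase, had 3.17 and 2.83 CPM in mock, 1.41 and 1.35 in TNF, 1.87 and 1.53 in Tub B and 0.415 and 0.6395 in TNF + Tub B. Its call (log2 fold change −1.69 ± 0.38, edgeR adjusted p = 0.00185) was lost without Tub B replicate 1 (0.0537). The remaining 6 members, WFDC1, METTL7B, FMO4, CPA4, RDH5 and MBOAT1, had log2 fold changes from −1.43 ± 0.24 to −0.71 ± 0.17.

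**Figure D4:**
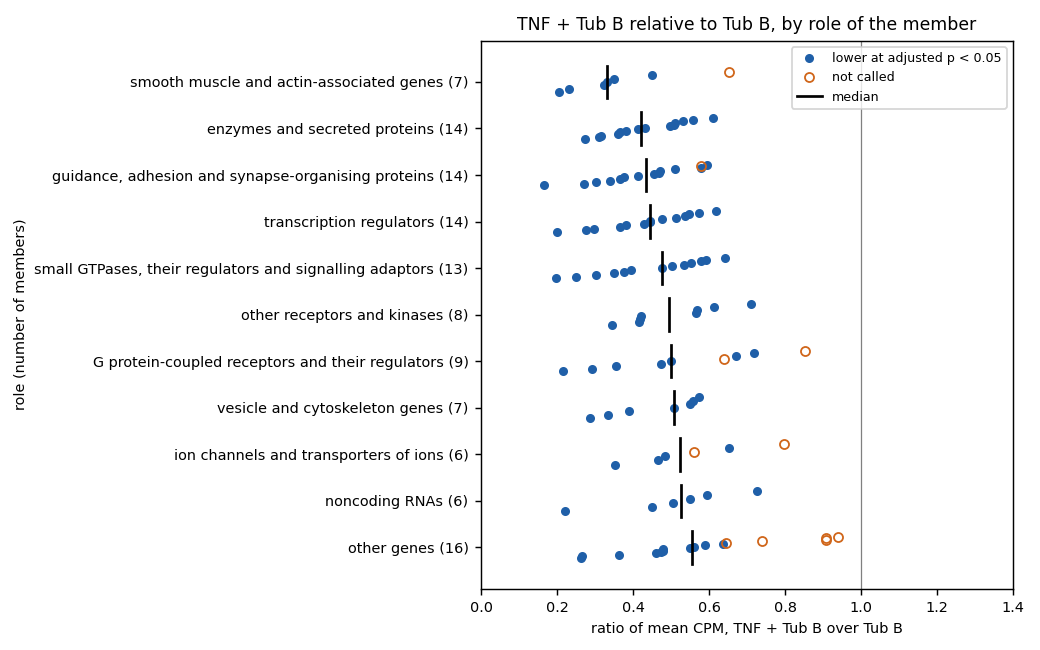
Ratio of mean CPM in TNF + Tub B to Tub B for each of 114 members, by role, with the median of the role as a black line. Filled points are members called lower (edgeR) and open points those not called. Role medians run from 0.330 in smooth muscle and actin-associated genes to 0.556 in other genes, and no member reaches 1.

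Vesicle and cytoskeleton genes were lower in TNF + Tub B than in Tub B in all 8 members. RAB7B, a small GTPase of late endosomes, had 7.81 and 11.6 CPM in mock, 4.23 and 3.65 in TNF, 14.5 and 15.5 in Tub B and 4.39 and 4.19 in TNF + Tub B, and its Tub B libraries were 1.54 times mock (log2 fold change −1.79 ± 0.13, edgeR adjusted p = 1.95e-09). DNM1, the neuronal dynamin, had 40.8 and 37.7 CPM in mock, 19.6 and 18.9 in TNF, 54.4 and 54.8 in Tub B and 30.8 and 29.99 in TNF + Tub B (log2 fold change −0.83 ± 0.07, edgeR adjusted p = 4.95e-09). SYTL2, a RAB27 effector, had 26.6 and 27.5 CPM in mock, 13.7 and 12.9 in TNF, 34.9 and 39.9 in Tub B and 18.98 and 23.9 in TNF + Tub B (log2 fold change −0.799 ± 0.09, edgeR adjusted p = 1.38e-06). In both, Tub B alone was above mock. MTCL1, a microtubule crosslinking factor, had 150.4 and 160.0 CPM in mock, 70.5 and 68.2 in TNF, 131 and 127 in Tub B and 65.4 and 65.4 in TNF + Tub B (log2 fold change −0.96 ± 0.05, edgeR adjusted p = 1.23e-11). SYPL2, a synaptophysin-like protein of muscle, had 37.1 and 49.4 CPM in mock, 15.4 and 14.8 in TNF, 30.8 and 27.1 in Tub B and 12.04 and 10.4 in TNF + Tub B (log2 fold change −1.35 ± 0.10, edgeR adjusted p = 2.81e-09). Both were below mock with Tub B and below TNF with both agents. KIF26B, a kinesin-family protein, had 10.2 and 11.3 CPM in mock, 4.85 and 5.61 in TNF, 7.72 and 7.74 in Tub B and 1.96 and 3.198 in TNF + Tub B, lowest with both agents (log2 fold change −1.597 ± 0.20, edgeR adjusted p = 2.29e-06). SSX2IP had a log2 fold change of −0.85 ± 0.06.

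The 6 noncoding RNAs were all lower in TNF + Tub B than in Tub B. MIR143HG, the host transcript of the smooth muscle microRNAs miR-143 and miR-145, had 7.49 and 8.42 CPM in mock, 3.63 and 3.604 in TNF, 4.75 and 4.21 in Tub B and 2.25 and 1.78 in TNF + Tub B (log2 fold change −1.13 ± 0.22, edgeR adjusted p = 0.000463). AC013463.2, which RefSeq symbols did not match, had 3.103 and 4.6004 CPM in mock, 1.63 and 1.65 in TNF, 3.36 and 3.37 in Tub B and 0.712 and 0.782 in TNF + Tub B (log2 fold change −2.15 ± 0.29, edgeR adjusted p = 7.39e-06). DANCR, a snoRNA host, had 12.5 and 10.3 CPM in mock, 6.04 and 4.86 in TNF, 12.6 and 14.1 in Tub B and 8.07 and 7.82 in TNF + Tub B (log2 fold change −0.73 ± 0.12, edgeR adjusted p = 8.61e-05). MIR143HG and AC013463.2 were below TNF with both agents, and DANCR was above it. BCYRN1 had 29.9 and 45.4 CPM in mock, 19.2 and 16.2 in TNF, 36.6 and 32.7 in Tub B and 25.3 and 24.9 in TNF + Tub B (log2 fold change −0.45 ± 0.08, edgeR adjusted p = 0.000183), and its value is uncertain because related copies can share reads. LINC01133 and CASC10 had log2 fold changes of −0.998 ± 0.27 and −0.86 ± 0.13.

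Among the 16 other genes, 11 were lower in TNF + Tub B than in Tub B and 5 were not called. CSDC2, an RNA-binding protein with a cold shock domain, had 6.81 and 9.37 CPM in mock, 1.41 and 1.602 in TNF, 6.19 and 5.11 in Tub B and 1.78 and 1.21 in TNF + Tub B. The libraries with TNF lay below those without it, and TNF + Tub B overlapped TNF (log2 fold change −1.88 ± 0.23, edgeR adjusted p = 2.35e-06). VWA5A, a protein with a von Willebrand factor domain, had 3.85 and 4.32 CPM in mock, 1.38 and 1.35 in TNF, 7.197 and 6.79 in Tub B and 1.898 and 1.78 in TNF + Tub B, with Tub B alone at 1.71 times mock, the highest such ratio of any member (log2 fold change −1.91 ± 0.20, edgeR adjusted p = 1.90e-07). KCTD12, a subunit of GABA-B receptor complexes, had 41.98 and 42.3 CPM in mock, 20.8 and 19.1 in TNF, 49.6 and 45.7 in Tub B and 28.5 and 25.01 in TNF + Tub B (log2 fold change −0.82 ± 0.08, edgeR adjusted p = 6.67e-08), above mock with Tub B and above TNF with both agents. SAMD5, TMEM35, PITPNM3, MGARP, CAND2, CYS1, EFHD1 and KIAA0922 had log2 fold changes from −1.403 ± 0.24 to −0.64 ± 0.11. KPRP, a keratinocyte protein, had 4.39 and 2.94 CPM in mock, 1.13 and 1.05 in TNF, 2.21 and 2.16 in Tub B and 2.25 and 1.85 in TNF + Tub B, so that Tub B and TNF + Tub B overlapped (log2 fold change −0.07 ± 0.25, edgeR adjusted p = 0.879), and without TNF + Tub B replicate 2 its log2 fold change was 0.06. On the list of cold shock and SAM domain genes, which holds CSDC2 and SAMD11, 3 of 9 tested genes were lower, 2 higher and 4 not called, with a median of −0.02.

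The levels with Tub B alone differed among the members. The ratio of mean Tub B to mean mock CPM ran from 0.372 in TRPC6 to 1.71 in VWA5A, with a median of 0.877 against 1.04 over the 14045 genes. Both Tub B libraries lay below both mock libraries for 56 members, against 18.2% of all genes, and above them for 28, against 38.8%. At least 1.5-fold lower were 28 members, against 1.93% of all genes, and at least 1.5-fold higher were 2, VWA5A and RAB7B, against 2.09%. The 7 members at 0.5 or less of mock (0.406% of all genes) were TRPC6, NPR3, SYNPO2L, NXPH3, NR2F1, RGS4 and OXTR. The mock libraries also chose the members for being high, so these counts are descriptions with no test. The median log2 ratio was −0.19 with both mock libraries, −0.11 without mock replicate 2 and −0.23 without mock replicate 1.

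When Tub B was added to TNF, the members spread to both sides of their TNF level. The ratio of mean TNF + Tub B to mean TNF CPM had a median of 0.986 over the members and 1.08 over all 14045 genes, and it ran from 0.273 in OXTR to 2.98 in TNFRSF10D. Both TNF + Tub B libraries lay below both TNF libraries for 46 members, against 18.1% of all genes, and above them for 41, against 52.0%. At least 1.5-fold lower were 24 members, against 4.10% of all genes, and at least 1.5-fold higher were 13, against 4.02%. With TMM-scaled CPM the median log2 ratio moved from −0.02 to −0.14, with 50 members below and 31 above without overlap. The shares of all genes given here use CPM by column sum and were not computed with TMM scaling, so they are no background for these 2 counts. In a TMM-scaled edgeR fit of all 8 libraries, the median log2 fold change was −0.15 over the members and −0.005 over 16647 genes. The TNF libraries chose the members for being low, so these too are descriptions.

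The 13 members at least 1.5-fold higher with both agents than with TNF were TNFRSF10D, LMTK3, KPRP, CSRNP3, P2RX6, IL6R, GSTA4, CLCN4, SYTL2, PKD1L2, DNM1, NTSR1 and ANKRD24. The 13 that were at least 1.5-fold lower both with Tub B alone against mock and with both agents against TNF were OXTR, LMOD1, BCO2, PREX2, NPR3, NR2F1, TENM2, DAB1, EFHD1, RHOJ, DIO2, MIR143HG and EFNB2. They make up 13 of 28 members lower with Tub B alone and 13 of 24 lower on addition to TNF. Of all 14045 genes, 160 (1.14%) were this much lower in both, out of 271 lower with Tub B alone and 576 lower on addition to TNF. Another 2 of the 28, KPRP (0.596 and 1.88) and NTSR1 (0.657 and 1.52), were at least 1.5-fold lower with Tub B alone and at least 1.5-fold higher on addition to TNF, as were 7 of all genes (0.0498%). KPRP had 4.39 and 2.94 CPM in mock and 2.21 and 2.16 in Tub B. NTSR1 had 4.82 and 2.83 CPM in mock and 2.54 and 2.48 in Tub B. For both genes the mock libraries lay apart, and the fall was smaller against mock replicate 2 than against replicate 1.

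**Figure D5:**
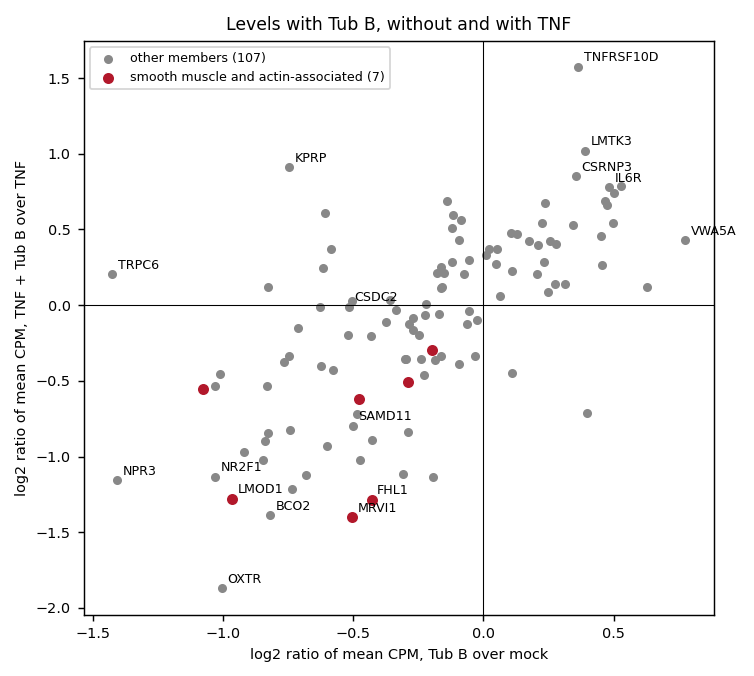
Each point is 1 of 114 members, with the log2 ratio of mean CPM in Tub B over mock on the x axis and in TNF + Tub B over TNF on the y axis. The 7 smooth muscle and actin-associated genes (red) all lie below 0 on both axes, OXTR is lowest on the y axis and TNFRSF10D highest.

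Mean levels with both agents had a median of 0.413 of mock over the 116 members and ran from 0.108 to 0.915 over the 114 reported individually. Both TNF + Tub B libraries lay below both mock libraries for 115 members, against 24.8% of the 14045 genes. Since the rule chose members for high mock levels, these values and this count are descriptions with no test.

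Of the lists that held no member, bone morphogenetic protein signalling and ID genes had 13 of 25 tested genes lower in TNF + Tub B than in Tub B, 3 higher and 9 not called (median −0.16). The insulin-like growth factor axis had 6 of 12 lower, 2 higher and 4 not called (median −0.21). The 21 tested cytochrome P450 genes had 3 lower, 2 higher and 16 not called (median −0.07). Cell cycle genes had 2 of 17 lower, 13 higher and 2 not called (median 0.52). Adipogenic and lipid storage genes had 2 of 13 lower, 4 higher and 7 not called (median −0.19), with PPARG, just outside the limit, among the lower (−0.98 ± 0.16, edgeR adjusted p = 8.10e-05). Of lists with members, cation channels had 18 of 67 lower, 8 higher and 41 not called (median −0.13). G protein-coupled receptors and RGS proteins had 13 of 84 lower, 21 higher and 50 not called (median 0.14). That list holds 6 members and leaves out CHRM2, GPRC5A and NTSR1. Homeobox, forkhead, SOX and T-box factors had 29 of 96 lower, 7 higher and 60 not called (median −0.14), and ZNF zinc finger genes 33 of 480 lower, 29 higher and 418 not called (median −0.03). Lists of glucocorticoid response genes (2 of 10 lower, 3 higher), fibroblast growth factors and receptors (3 of 16 lower, 5 higher), KLF and EGR factors (6 of 17 lower, 6 higher) and histones (0 of 29 lower, 6 higher) held no member. Beside these stand 13.3% lower, 15.7% higher and a median of −0.01 for all 15828 genes.

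Exons of 15 members overlap those of another gene whose mean CPM is at least 10% of the member's, by gene symbols of GENCODE 29. The library kit does not keep strand, so reads in such overlaps cannot be told apart. For SAMD11 the partner is NOC2L, with means of 141 CPM in mock, 127 in TNF, 127 in Tub B and 128 in TNF + Tub B. For CSDC2 it is PMM1, with means of 54.4, 44.9, 54.1 and 52.7 CPM in the same order. Others are SOX6, CAND2, DNM1, DAB1, METTL7B, MGARP, NR2F1, P2RX6, MAP3K14, SERTAD4, NOS1AP and C1orf226, the last 2 of which overlap each other. Some partners were also lower with TNF, without and with Tub B. In the same order, ITGA7 (METTL7B) had 33.1, 22.7, 31.0 and 20.7 CPM, and NR2F1-AS1 (NR2F1) 16.2, 9.30, 15.2 and 9.33. MAP3K14-AS1 (MAP3K14) had 3.20, 1.47, 2.78 and 1.33, and RPL32 (CAND2) 335, 276, 332 and 303. THAP7-AS1 (P2RX6) was higher with TNF, at 1.17, 2.02, 2.12 and 2.54. The part of partner reads in the members' levels was not tested.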

How the data were processed

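The authors deposited 1 table of raw counts per gene symbol (38173 symbols) from the 8 poly(A) libraries. The submitters' processing notes list STAR 2.7.0 and featureCounts as tools and mm10 and hg19 as builds, with no role for either build. The featureCounts version is not given here. Per the labels' protocols, the kit does not keep strand.

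Levels are CPM by column sum. The main test was edgeR 4.0.16 (R 4.3.3) on the 4 libraries with Tub B, with filterByExpr, TMM scaling, a quasi-likelihood fit by group and Benjamini-Hochberg adjustment over 15828 genes at 0.05 (2 residual and 17.3 prior degrees of freedom). Standard errors were the log2 fold change divided by the square root of F. Shares over all genes outside the test use 14045 genes with a mean of at least 1 CPM. Alternatives used DESeq2 1.42.0, limma 3.58.1, other scalings and filters, a replicate term and leaving out libraries. The test was tested on simulated data.

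The members, roles and lists were chosen with earlier results of these data known. Named genes were CSDC2, SAMD11, the members at the ends of each ratio, of mock level and of the tested fold change, those next to the ratio limit, and up to 5 members of each list. Other members were named after their values were seen, to cover each role. Promoters came from a RefSeq table (GRCh38.p14), whose build differs from hg19. Of the members, 2 are not reported here individually and are left out of the plots, while counts and medians over the 116 include them. Splicing was not analysed here.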

Additional observations from a re-analysis of the deposited data

How the results depend on the processing

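The count of members lower in TNF + Tub B than in Tub B was 105 and stayed within 91 to 105 under the 14 alternatives run, with none higher in any. Over all genes, 2099 were lower and 2486 higher in the main fit; DESeq2 gave 1142 and 1622, an adjusted p of 0.01 gave 1359 lower, and leaving out 1 library gave 1333 to 1852 lower. The members' median log2 fold change was −1.05 to −1.11 without 1 library. With a replicate block the count stayed at 105 and the median at −1.07; replicate 1 deviations of the 2 groups correlated at 0.0437, so the numbers are not treated as pairs. The rule gave 189 members at a mock minimum of 1 CPM, 84 at 5 CPM, 41 at a ratio of 0.4, 88 with TMM-scaled CPM and 111 to 136 without 1 mock or TNF library. Among 49 members chosen by the naming rule, 667 of 686 fits kept direction and call, 18 lost the call, and KPRP, not called in any fit, ranged from −0.224 to 0.0566 without 1 library, reversed in sign without TNF + Tub B replicate 2 (the cause was not tested). With TMM-scaled CPM the median log2 ratio of TNF + Tub B to TNF was −0.14. The rule without a mock or TNF library, and every alternative to the ratios of Tub B to mock and of TNF + Tub B to TNF, were chosen after seeing the data. With 2 libraries a group, members near 3 CPM have few counts, which limits their precision.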
